A study of Homo sapiens with 6 samples.

Results

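Olfactory receptor gene clusters were described here through the chromatin loops that touch them. They were 9 genomic intervals with large groups of receptor genes on chromosomes 1, 9, 11 and 14, and a loop was taken as a member when at least 1 of its anchors overlapped an interval. Of the 46849 loops in the list, 114 (0.243%) were members, and they were set beside the 9843 other loops of the same chromosomes. The loops came from Micro-C, a form of Hi-C that cuts chromatin to nucleosomes with micrococcal nuclease, in wild-type HAP1, a near-haploid cell line derived from a chronic myeloid leukaemia. Cells with a diploid DNA content had been sorted with Hoechst and were fixed with 1% formaldehyde for 10 min and 3 mM DSG for 45 min. The 6 replicates formed 1 group without a treatment, and their loops were deposited as 1 pooled list, so no value here has a spread between replicates.

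Olfactory receptors are G-protein-coupled receptors by which sensory neurons of the nose detect odorants. They form the largest gene family of mammals and lie in tandem clusters, with many pseudogenes among the intact copies. A mature olfactory neuron transcribes a single receptor allele, while its other receptor genes are silenced in heterochromatin, and in other cell types most receptor genes are silent. Loops, for their part, commonly form where cohesin extrudes chromatin up to bound CTCF. The list holds no expression values, and whether a receptor gene is active in HAP1 was not analysed here.

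The intervals are given in hg19, and 5 lay on chromosome 11. The lower 11p cluster (4.38 to 5.19 Mb) and the upper 11p cluster (5.36 to 6.3 Mb) hold the class I, fish-like receptors and lie on either side of the beta globin genes. On the long arm followed the proximal 11q (55 to 56.6 Mb), middle 11q (57.8 to 59.3 Mb) and distal 11q (123.6 to 124.5 Mb) clusters. The others were the 1q cluster (chromosome 1, 247.6 to 248.85 Mb), the 14q cluster (chromosome 14, 20.2 to 20.75 Mb), and the lower 9q (107.25 to 107.5 Mb) and upper 9q (125.2 to 125.6 Mb) clusters. In RefSeq's GRCh38 annotation, 9 runs of receptor genes matched to these intervals by their order along the chromosomes held 409 receptor genes, of which 226 were protein-coding and 183 pseudogenes. The runs need not end where the intervals do. The largest were the run on 11p, with 103 genes, and that of proximal 11q, with 106.

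The receptor promoters held less G and C than those of other genes. A promoter here is the 300 bases from 250 before to 50 after a gene's start, and 180 of the 226 coding receptor genes had one in the RefSeq table. Their median GC content was 37.2% (quartiles 33.3 and 41.7%), against 63.0% (quartiles 54.6 and 70.3%) for 3680 other coding genes of these chromosomes. The median number of CG dinucleotides was 1 against 22. GC content varied between the runs. It was lowest in the proximal 11q run (median 33.3%, quartiles 31.3 and 36.3%, n = 43) and highest in the second middle 11q run (median 40.7%, quartiles 39.8 and 43.3%, n = 8), and no test was made between runs. To show this, the receptor gene nearest to the median GC content of its run is printed for 11p (OR52A5, 40%) and for proximal 11q (OR4S2, 33.3%). They stand beside the other coding gene of chromosome 11 nearest to that group's median, CHRM1, a muscarinic acetylcholine receptor gene (62.7%). Positions are on GRCh38.p14 and cannot be set against the hg19 loop positions. CG dinucleotides are in capitals, and the sequences hold 2, 2 and 9 of them. The genes were picked by GC content and are not typical in CG number. CHRM1 lies below the median of 22 of the other genes, and each receptor gene above its run's median of 1.
OR52A5 (chr11:5138307-5138606, minus strand): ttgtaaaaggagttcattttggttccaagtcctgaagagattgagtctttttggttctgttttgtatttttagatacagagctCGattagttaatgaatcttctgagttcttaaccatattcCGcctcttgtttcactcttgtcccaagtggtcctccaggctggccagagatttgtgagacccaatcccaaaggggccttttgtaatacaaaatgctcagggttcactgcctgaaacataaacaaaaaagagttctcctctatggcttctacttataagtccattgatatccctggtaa
OR4S2 (chr11:55648077-55648376, plus strand): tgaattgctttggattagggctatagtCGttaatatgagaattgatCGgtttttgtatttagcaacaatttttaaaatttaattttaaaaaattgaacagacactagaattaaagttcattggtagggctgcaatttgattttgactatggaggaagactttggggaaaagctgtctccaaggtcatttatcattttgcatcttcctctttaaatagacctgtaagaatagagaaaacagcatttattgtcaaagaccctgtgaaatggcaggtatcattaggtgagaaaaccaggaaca
CHRM1 (chr11:62921314-62921613, minus strand): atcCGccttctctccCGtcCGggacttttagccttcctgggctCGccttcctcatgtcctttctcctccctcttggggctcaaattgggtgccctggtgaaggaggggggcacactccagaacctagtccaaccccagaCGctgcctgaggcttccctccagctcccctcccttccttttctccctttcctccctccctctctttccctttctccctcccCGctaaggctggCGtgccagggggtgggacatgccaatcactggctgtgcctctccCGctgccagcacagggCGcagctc

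Loops were unevenly shared among the clusters: 8 of the 9 held between 6 and 33 loops and the 14q cluster held none. Together the 114 loops came to 13.9 per Mb over 8.20 Mb. The rates of the same chromosomes outside the clusters would give 134 loops, a ratio of 0.848 (95% interval 0.700 to 1.02). Without the proximal 11q cluster it was 1.00, without the 14q cluster 0.914, and with loops of 10 kb anchors alone (23 members) it was 1.28. When loops in and outside the clusters needed each of the caller's 4 q-values at or below 0.1, 71 members were left and the ratio was 0.698. A short interval collects loops by either of their ends, which raises its count per Mb over that of a whole chromosome. Each cluster was therefore also compared with the mean of all windows of its own length on its chromosome, counted in the same way. By that measure the clusters held 119 loops, counting 5 that touch 2 clusters in each, against 167, a ratio of 0.712 (interval 0.590 to 0.852). The intervals cover counting error only, and since loops cluster along chromosomes the true uncertainty is larger.

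The proximal 11q cluster, among the largest by gene number, was the poorest of those with loops. It held 6 loops in 1.60 Mb, or 3.75 per Mb, against 16.3 per Mb on the rest of chromosome 11 (ratio 0.229, interval 0.0841 to 0.50). A mean window of its length held 30.1. Its flanks were poor too, with 1 loop end in the 500 kb below and 9 in the 500 kb above. These came to 2 and 18 ends per Mb, against 7.5 in the cluster and 32.9 on the rest of chromosome 11. The distal 11q cluster held 7 loops, 7.78 per Mb (ratio 0.476, interval 0.191 to 0.982), where a mean window held 18.6. With its interval 50 kb longer at both ends it held 15 loops and the ratio was 0.921. For the 1q cluster the 16 loops came to 12.8 per Mb against 17.6 on the rest of chromosome 1 (ratio 0.726, interval 0.415 to 1.18), and a mean window held 26.8.

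The clusters on 11p and the middle 11q cluster lay near their chromosome. The lower 11p cluster held 15 loops against 17.1 in a mean window, and the upper 11p cluster 22 against 19.3. By rate their ratios were 1.13 and 1.43, and counted by loop ends 0.713 and 0.905. In middle 11q the 33 loops stood against 28.5, and by rate they came to 22.0 per Mb (ratio 1.35, interval 0.924 to 1.90). The 2 clusters on 9q had the highest rates, 36.0 per Mb for the lower (9 loops) and 27.5 for the upper (11 loops), against 13.3 on the rest of chromosome 9. The ratios of 2.71 (interval 1.24 to 5.15) and 2.07 (interval 1.03 to 3.71) were those of very short intervals. With anchor-free stretches of 3 Mb or more left out of the chromosome's length, they were 2.08 and 1.59. The mean windows kept those stretches. Against these windows, of 5.42 and 7.97 loops, the ratios came to 1.66 (interval 0.759 to 3.15) and 1.38 (interval 0.689 to 2.47), intervals that include 1. With the upper 9q interval 50 kb shorter at both ends, 1 of its loops was left (ratio 0.249), and in lower 9q 2 loops had each of the caller's 4 q-values at or below 0.1 (ratio 0.844).

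**Figure D1:**
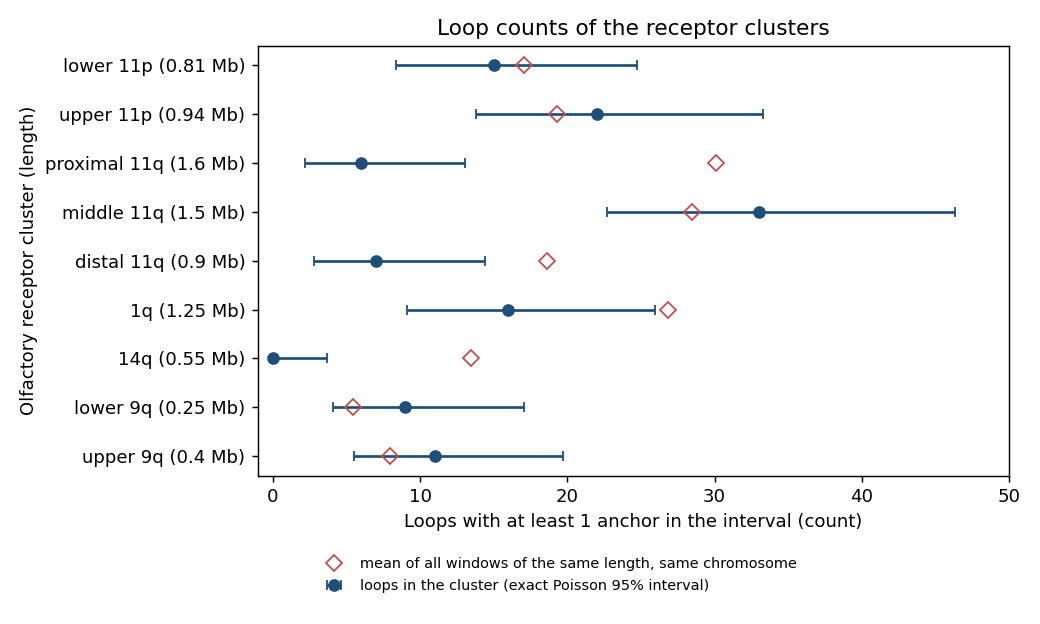
Loops with at least 1 anchor in each receptor cluster (points, exact Poisson 95% intervals) and the mean count of all windows of the same length on the same chromosome (open diamonds); the x axis is a count of loops. The intervals of proximal 11q, distal 11q, 1q and 14q lie below their diamonds, and the other 5 include theirs.

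No anchor lay in the 14q cluster. A count of 0 allows up to 3 loops, or 5.45 per Mb, against 17.7 per Mb on the rest of chromosome 14, and a mean window of its length held 13.4 loops. The cluster lies before the first loop of the chromosome, whose first anchor starts at 20795001, so no anchor was called anywhere between it and the chromosome's end. The 500 kb above the cluster held 34 loop ends, or 68.0 per Mb, against 35.3 per Mb along the chromosome. Whether reads could be mapped in the cluster cannot be seen from a loop list. No loop passed over the 14q cluster either, and with no anchor below it none could.

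A test across the whole genome put these counts in proportion. The covered length of all chromosomes was cut into 5886 tiles of 500 kb, and each tile's loops were compared with an even spread over its chromosome (exact binomial test, Benjamini-Hochberg over all tiles). Loops cluster, so many tiles departed from an even spread: 19.5% were called lower, 12.2% higher, and 7.9% held no anchor. Of the 16 tiles centred in a receptor cluster, 3 (18.8%) were called lower, 1 (6.25%) was called higher and 1 held no anchor. With tiles of 1 Mb, 3 of 8 cluster tiles (37.5%) were called lower against 21.4% of all tiles, and 2 (25%) higher against 16.4%. No test was made between cluster tiles and the rest. The 14q cluster lay before the first anchor of its chromosome, and no tile was centred in it.

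The lower calls fell in proximal 11q and at the far end of 1q. In proximal 11q the tile from 55.5 to 56 Mb held 1 loop and that from 56 to 56.5 Mb held 0, where 11.6 were expected (adjusted p = 0.00158 and 0.00051, exact binomial tests). On 1q the tile from 248.5 to 249 Mb held 3 against 12.7 expected (adjusted p = 0.0131, exact binomial test). The last anchor of chromosome 1 ends at 248855000, inside that tile. The single higher tile, in middle 11q from 58.5 to 59 Mb, held 23 loops (adjusted p = 0.0129, exact binomial test).

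Within the clusters, loops gathered in some stretches and left others free. Proximal 11q had 9 of its 12 loop ends in its first 500 kb, and none between 55860001 and 56550000. That anchor-free stretch of 690 kb was 1 of the 7 longest on chromosome 11. It was bridged by 1 loop of the cluster, from 55480001 to 55490000 up to 56550001 to 56560000 (10 kb anchors, 11 observed contacts against 1.24 expected from the ring of pixels around it, the donut). All 6 loops of this cluster had both ends inside it, and none passed over it. In lower 11p the stretch from 4660001 to 5020000 was free of anchors (360 kb). Distal 11q had a free stretch of 290 kb and upper 9q one of 230 kb. Such lengths were common: chromosome 11 had 37 stretches at least as long as that of lower 11p and 51 as that of distal 11q. Chromosome 9 had 58 at least as long as that of upper 9q.

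The middle 11q interval joins receptor genes with other genes, and its loops lay mostly away from its low end. Its first block, from 57.8 to 58.05 Mb, held 1 loop end, as part of an anchor-free stretch of 420 kb that begins below the interval. The block from 58.8 to 59.05 Mb held 24. In the gene order of GRCh38 a first run of 26 receptor genes (OR5BA1P to OR5B21) is followed by 12 other coding genes, among them ZFP91, the ciliary neurotrophic factor gene CNTF, the glycine acyltransferase gene GLYAT, FAM111A and DTX4. A second run of 16 receptor genes (OR5AN2P to OR10V2P) comes after these. Which loop ends lie on receptor genes was not analysed here, for want of hg19 gene positions.

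Along 1q the ends thinned out towards the end of the chromosome. The first blocks of 250 kb held 8 and 8 loop ends, the next 5, and the last 2 and 3. The 500 kb below the cluster held 22 loop ends. Above it lay 1 up to the end of the chromosome, whose last anchor ends at 248855000. Distal 11q, by contrast, was flanked by 21 ends in the 500 kb below and 36 in the 500 kb above, against 12 in its own 0.9 Mb.

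**Figure D2:**
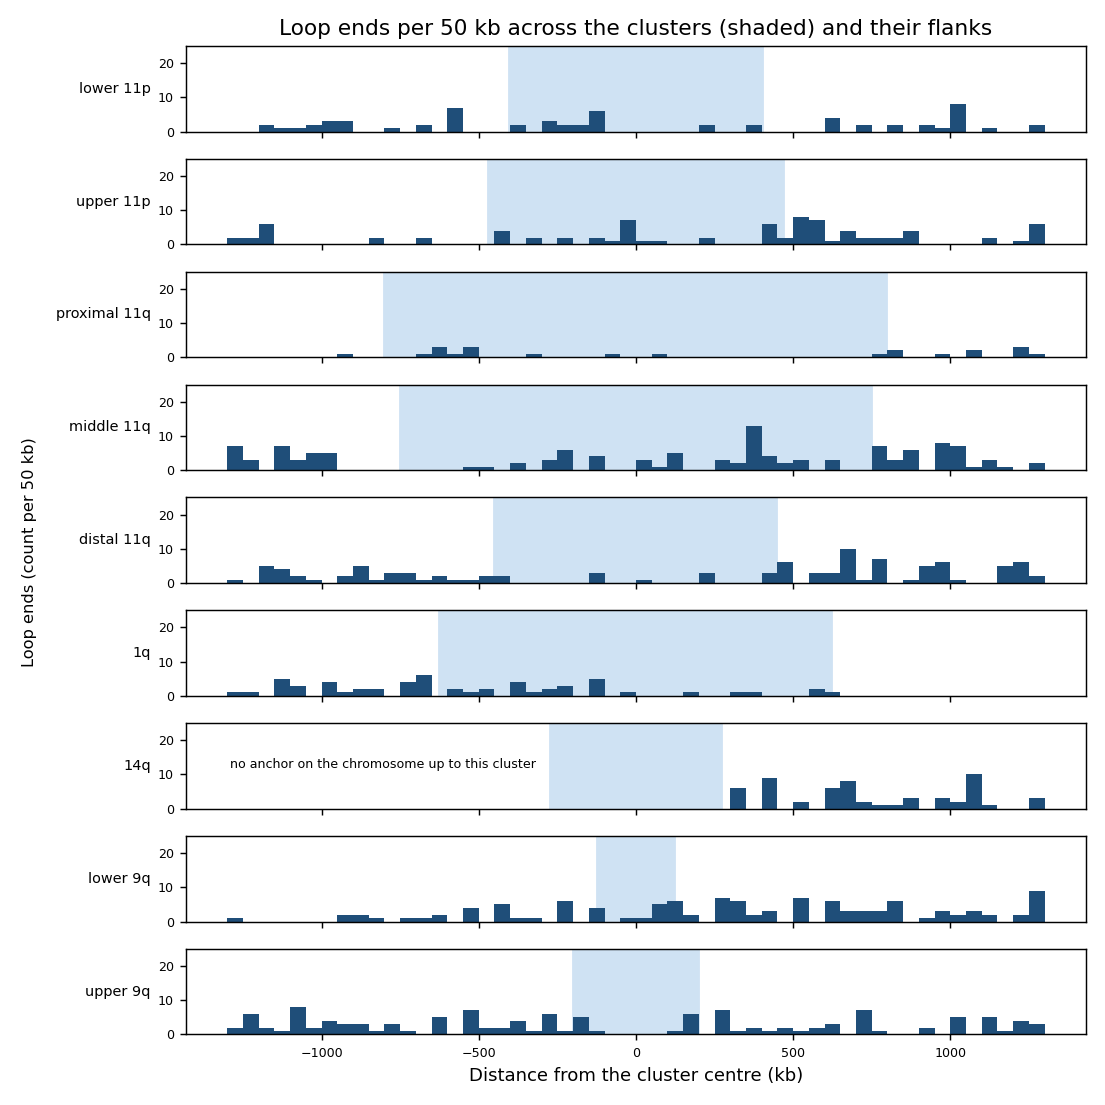
Loop ends per 50 kb (bars, count) against the distance from each cluster's centre in kb, with the cluster shaded; each row is 1 receptor cluster. Proximal 11q shows the 690 kb without anchors, 14q is empty up to its upper edge, and distal 11q is sparser than its flanks.

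The 2 clusters on 11p were joined to each other. Of their 32 loops, 5 ran from the lower to the upper cluster across the interval between them (5.19 to 5.36 Mb), which by gene order holds the beta globin genes. In the RefSeq order, 54 receptor genes come before HBB and 49 after HBE1, with none between. No loop of the list had an anchor in that interval of 170 kb, and 8 passed over it, all of them members.

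By the ratio to the donut expectation, the strongest loop of both clusters was one of the joining loops. It ran from 4645001 to 4650000 up to 5400001 to 5405000 over 755 kb, with 30 observed contacts (exact Poisson 95% interval 20.2 to 42.8) against 1.73 expected. The ratio was 17.3. Against the lower-left expectation its ratio was 20.0, below the 47.6 of the loop from 5400001 to 5825001 inside the upper cluster. Another joining loop linked 5145001 to 5150000 with 5825001 to 5830000 (21 contacts, ratio to the donut 16.9). A further one linked 4655001 to 4660000 with 5825001 to 5830000 (21 contacts, ratio 14.9). The remaining joining loops, from 5145001 to 5400001 and, with 10 kb anchors, from 4650001 to 5910001, had ratios of 7.88 and 4.20.

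These loops met at a small set of anchors. The merged anchor at 5825001 to 5830000 held 7 loops, each running to lower coordinates, with spans of 65 to 1620 kb and a median ratio to the donut of 13.7. For all 7, the expectation from the vertical surroundings was above that from the donut (1.16 to 5.07 against 0.849 to 2.52 contacts). Against the vertical surroundings the ratios are therefore lower. The expectation from the lower-left surroundings was below the donut's in all 7 (0 to 1.37 contacts). Below the lower cluster and outside it, the anchor at 4200001 to 4210000 also held 7 loops, each running to higher coordinates, with a median ratio of 11.2. These 2 anchors had the most member loops of all clusters and faced each other, joined by the longest loop of the upper cluster (1620 kb, 12 contacts in a single pixel, ratio 13.7). When anchors within 10 kb counted as the same, 6 anchors of 11p held at least 4 of the 32 loops, and 9 of their 15 pairs were joined by a loop. The 4 at 4200001, 4645001, 5400001 and 5825001 were joined in every pair, with ratios of 6.25 to 17.3. This set was singled out after its values had been seen.

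The highest count on 11p was in the loop from 4205001 to 4210000 up to 4560001 to 4565000, with 112 contacts against 8.95 expected (ratio 12.5). In the upper cluster it was the 65 kb loop from 6270001 to 6275000 up to 6335001 to 6340000, with 81 contacts (ratio 6.15). The longest loop on 11p passed over the whole upper cluster, from 4645001 to 4650000 up to 6380001 to 6385000 (1735 kb, 9 contacts, ratio 8.13). Its q-value against the donut, as given by the caller, was 0.161.

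**Figure D3:**
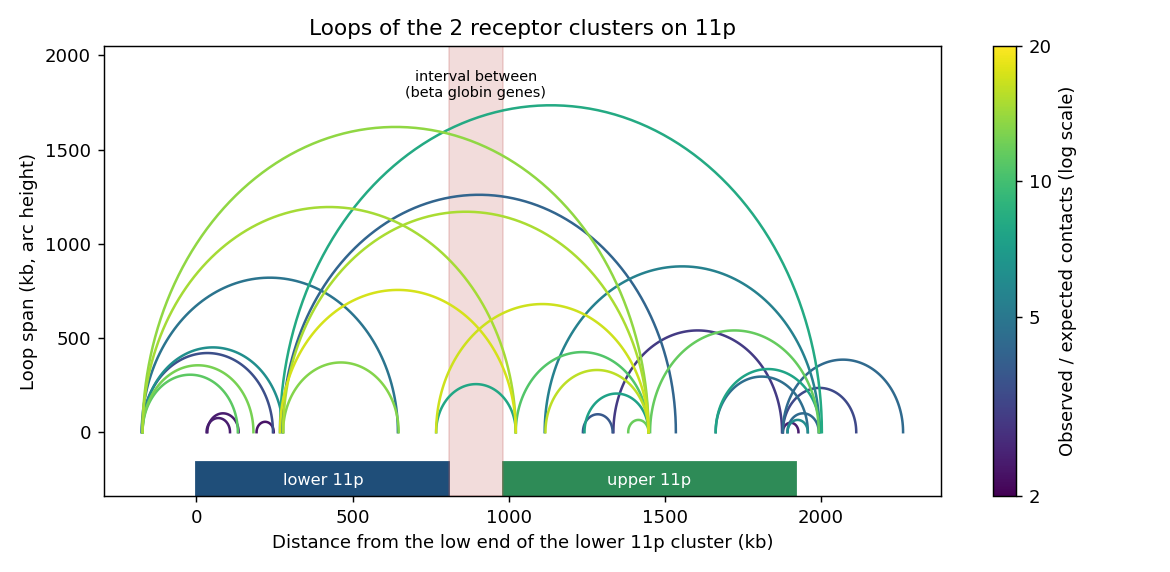
Loops of the lower and upper 11p clusters as arcs; the x axis is the distance from the low end of the lower cluster in kb, arc height is span in kb and colour is observed over expected contacts on a log scale. Of the arcs, 8 cross the interval of the beta globin genes and none ends in it.

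In distal and middle 11q, the strongest loop joined anchors that held others too, whereas the strongest loops of 1q and of proximal 11q each joined 2 anchors with no other loop. In distal 11q the anchors at 123940001, 124270001 and 124455001 were joined in each pair, with 17 to 30 contacts and ratios of 7.57, 8.34 and 11.4. The highest count of that cluster, 49, was in a 35 kb loop at its low edge (ratio 3.28). In middle 11q the anchor at 58930001 to 58940000 sent 6 loops to higher coordinates. Among these were the cluster's strongest, to 59195001 to 59200000 (260 kb, 59 contacts, ratio 14.5), and that with the most contacts, to 59050001 to 59055000 (75 contacts, ratio 9.91). Its longest loop reached out to 57110001 to 57120000, below the cluster (1230 kb, 28 contacts, ratio 3.41).

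On 9q most loops left the clusters. Of the 11 loops of upper 9q, 9 had an end outside it, and 5 met at 125570001 to 125580000 near its upper edge. The strongest joined that anchor with 125225001 to 125230000, near the lower edge, with 88 contacts (interval 70.6 to 108) against 6.66 expected (ratio 13.2). The longest ran from the same lower anchor up to 126110001 to 126115000 (885 kb, 18 contacts, ratio 7.44). In lower 9q, 6 of 9 loops left the cluster, and its strongest joined 107255001 to 107260000 with 107505001 to 107510000, just above the interval (25 contacts, ratio 7.76). Its highest count was 32, in a 130 kb loop of 10 kb anchors (ratio 2.59), and its longest spanned 520 kb (24 contacts, ratio 2.58).

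The largest ratio of all members belonged to 1q. The loop from 248605001 to 248610000 up to 248810001 to 248815000 spanned 205 kb and had 51 contacts (interval 38.0 to 67.1) against 0.701 expected, a ratio of 72.7. The expectation was low in each of the 4 surroundings, between 0.559 and 1.13 contacts, and lay 3.21 log2 units below the median of loops of like span (depth -3.21). Of the 46618 loops under 2 Mb, 50 had a ratio at least as high, 5 of them on chromosome 1, this loop included. The next strongest in 1q, from 247840001 to 247845000 up to 248020001 to 248025000, had a ratio of 7.59 and the cluster's highest count, 66. The longest, of 670 kb, started below the cluster (13 contacts, ratio 3.08, the caller's donut q-value 0.593).

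Member loops were longer than other loops of their chromosomes, with higher ratios and fewer contacts. The median span was 258 kb (quartiles 90 and 514 kb) against 155 kb (quartiles 70 and 360 kb). A long loop can touch an interval from outside, and the 59 loops with both ends inside, whose span the interval limits, had a median of 130 kb. The observed count had a median of 23 contacts against 33, and the donut expectation one of 4.90 against 9.20. The median ratio of observed to expected was 4.37 (quartiles 2.80 and 7.69) against 3.59 (quartiles 2.59 and 5.39). Without the 11p clusters it was 3.69. A ratio of 10 or more was found in 17 members (14.9%) against 5.64% of the other loops, and 12 of these 17 were among the 32 loops of 11p. These are descriptions of 1 list with no test.

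Within classes of span, the median ratios of 5 kb members and other 5 kb loops stood furthest apart between 200 kb and 1 Mb. The classes were not repeated without the 11p loops. Under 100 kb, the median ratio of 5 kb loops was 2.66 in members (n = 30) and 2.66 in other loops, and at 100 to 200 kb it was 4.65 (n = 11) against 4.06. At 200 to 500 kb it was 7.21 (n = 32) against 5.13, and at 500 kb to 1 Mb 8.64 (n = 11) against 6.06. From 1 Mb up the medians were 8.13 (n = 7) and 7.94. Over both anchor widths, the medians from 1 Mb up stood further apart, at 7.60 (n = 10) against 5.81, and those at 200 to 500 kb were 6.25 (n = 37) against 4.52. The expectation of members was lower in each class, with medians of 9.71 against 15.5 contacts under 100 kb and 3.72 against 5.51 at 200 to 500 kb. The median observed count of 5 kb members was also lower (27.5 against 43 under 100 kb), except at 500 kb to 1 Mb, where it was 22 against 19. The list holds no loop under 8 contacts, so where few contacts are expected only high ratios can enter it; its part in these values was not tested.

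**Figure D4:**
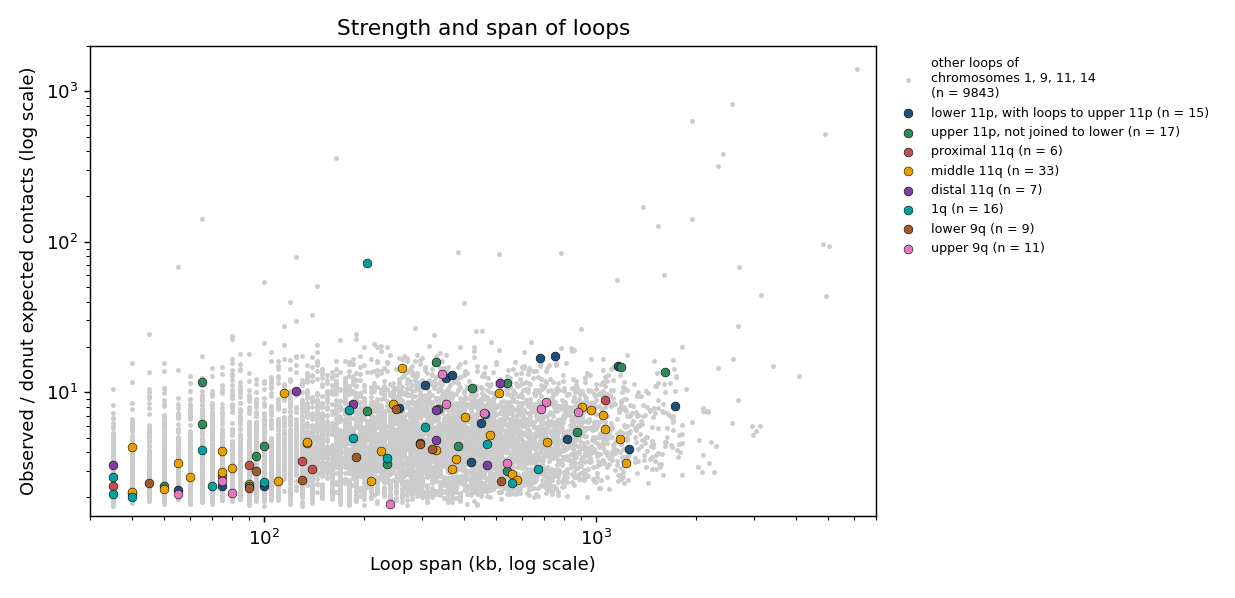
Observed over donut expected contacts against span in kb (both axes log scale) for the member loops, coloured by cluster, and the 9843 other loops of the same chromosomes (grey). The 11p loops make up 12 of the 17 members at a ratio of 10 or more, and a single 1q loop stands at 72.7.

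Contact depth was low in most clusters. Depth compares, on the log2 scale, a loop's donut expectation with the median of loops of similar span, for 5 kb anchors. Its median over the 91 members with 5 kb anchors was -0.47, against 0.07 in the other loops of the same chromosomes. A 95% interval of -0.65 to -0.31 served only to sort the alternative values. It takes no account of the anchors and surroundings that members of a cluster share. Depth was lowest in proximal 11q (-1.20, n = 4, all of them at -0.97 or below), distal 11q (-0.91, n = 6), upper 11p (-0.74, n = 19) and lower 9q (-0.74, n = 7). Lower 11p stood at -0.48 (n = 11), middle 11q at -0.34 (n = 27) and 1q at -0.18 (n = 13), against -0.02 on the rest of chromosome 11 and 0.20 on that of chromosome 1. Upper 9q alone lay above its chromosome, at 0.15 (n = 8) against 0.02. The lowest single value, -4.00, was in upper 11p, in a 65 kb loop at 5760001 to 5825001 with 10 contacts against 0.849 expected. For that loop the expectation was 0 from the lower-left surroundings, 2.35 from the horizontal and 2.03 from the vertical, so the value depends on the surroundings used. Low depth went with few loops in proximal and distal 11q but not in upper 11p or lower 9q, and its part in the loop counts was not tested. Depth is read at called loops only, so the anchor-free stretches and the 14q cluster have no value.

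**Figure D5:**
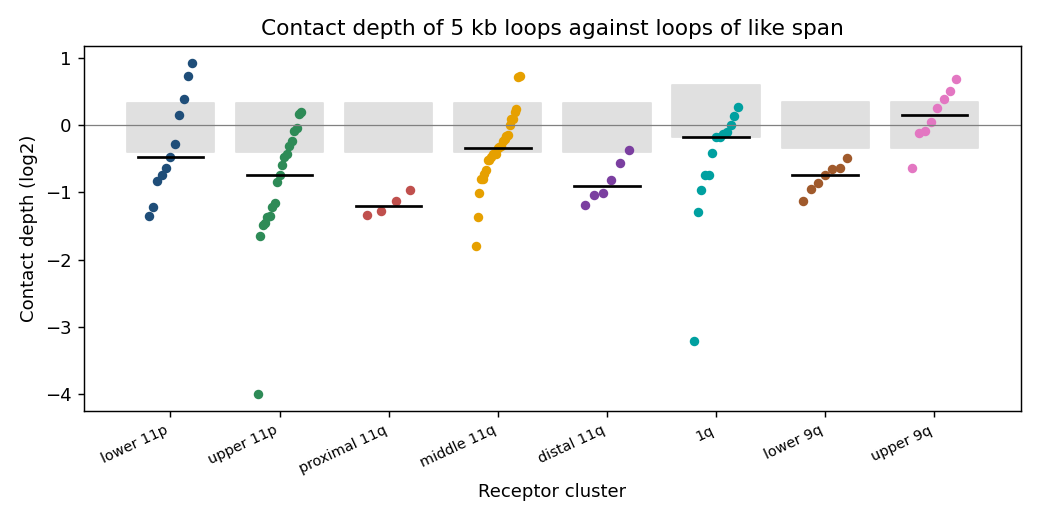
Contact depth in log2 (y axis) of 5 kb member loops by receptor cluster, as points with their median (line); grey boxes span the quartiles of the other 5 kb loops of the same chromosome. The medians lie below 0 in 7 of the 8 clusters, and all 4 points of proximal 11q lie below their box.

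Most member loops shared an anchor with another loop. Another loop used the same anchor for 99 of 114 members (86.8%), against 90.7% of the other loops of these chromosomes. Sharing was complete in lower 11p (15 loops), upper 11p (22 loops) and lower 9q (9 loops), and lowest in proximal 11q, with 2 of 6 loops. Of the 98 merged anchors inside the clusters, 40 (40.8%) held at least 2 loops, against 47.8% of 9739 other anchors. In proximal 11q it was 1 of 11. Anchors covered 4.69% of the 5 kb bins of proximal 11q and 4.44% of those of distal 11q, against 10.1% along chromosome 11.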

How the data were processed

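Micro-C was done in HAP1 cells as 6 replicates of 1 group; the authors deposited 1 loop list for all of them, so no spread between cultures can be given. The submitters' processing notes name BWA and hg19, and the file header names juicer_tools version 1.22.01; how replicates were pooled, how deeply they were sequenced and how loops were called is not stated there. The authors deposited whole raw contact counts and counts of merged pixels. Expected contacts were deposited on the same scale. The caller's q-values as deposited were used in 1 alternative and are otherwise only quoted. The radius of each pixel group, in bp, a unit of its own in the deposited list, was not used.

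Members were loops with an anchor overlapping a cluster by at least 1 bp. Members and lists were chosen with earlier results of these data known. For each cluster, 3 named loops were fixed by rule: the highest ratio, the highest count and the longest. Rates carry exact Poisson or conditional binomial 95% intervals, and a count of 0 allows up to 3 loops. These cover counting error only and treat loops as independent, although 86.8% of members share an anchor. Tiles were tested on simulated data first, then with exact binomial tests (two-sided, Benjamini-Hochberg over all tiles). The work used scipy 1.17.1 and pandas 2.3.3 under Python 3.11.15, with numpy 2.4.6, and figures were drawn with matplotlib 3.10.9. Alternatives covered anchor width, chromosome length, q-values, single pixels, nearby loops and cluster ends.

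Anchors are not on GRCh38: on chromosome 11 from 0 to 50 Mb, 55 of the 5 kb bins that hold an anchor also held a GRCh38 gene start at matching positions, against 140 with gene starts moved by 20 kb. No hg19 genome or annotation was used, so loops are named by position, and GRCh38 supplied gene names, their order and promoters only.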

Additional observations from a re-analysis of the deposited data

How the results depend on the processing

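Of 141 alternative values, 125 lay inside the 95% interval of the reported value, or within 1.5 times of a count, and 16 did not. Of the 125, 11 belonged to the 14q cluster, where any alternative that only removes loops must return 0. Values that leave out a cluster share most of their loops with the reported value, so the tally does not measure robustness. The loop-end and window counts and those without the middle 11q or the 11p clusters were chosen after seeing the data. For all clusters together the ratio of loops per Mb was 0.439 for loops with both anchors inside the same cluster. It was 0.698 for loops with each of 4 q-values at or below 0.1 (71 loops), 0.659 for loop ends and 1.28 for 10 kb loops alone (23 loops). Both anchors inside gave 0.302 for lower 11p, 0.390 for upper 11p, 0.902 for lower 9q and 0.376 for upper 9q, by construction lower since fewer loops count. With 10 kb loops alone, lower 11p stood at 2.33 (4 loops) and proximal 11q at 0.589 (2 loops). The q-value limit gave 0.844 for lower 9q (2 loops), and intervals 50 kb shorter at both ends gave 0.249 for upper 9q (1 loop). Intervals 50 kb longer gave 0.921 for distal 11q (15 loops), inside the interval of its reported value. With 1 Mb tiles, 2 of 8 cluster tiles were called higher (25% against 16.4% of all tiles) and 3 lower (37.5% against 21.4%). The median span was 130 kb for loops with both anchors inside, sharing was 93.0% with anchors within 10 kb counted as the same (97.2% in other loops), and contact depth was -0.25 in 10 kb loops. For the changes not due to the construction named, the cause was not tested. No paired analysis was possible because the replicates form 1 group and are pooled in the list. Depth limits single loops: a median member rests on 23 contacts.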
